A study of Homo sapiens with 18 samples.

Results

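Ribosome biogenesis and nucleolar genes encode the proteins that make, modify and assemble the ribosome. A list of 40 such genes was followed in human mesothelioma cells treated with piroxicam (P), with cisplatin (C) or with both drugs (P/C). Members were the listed genes with a probe set that the platform annotation gives a single gene symbol, and 30 of the 40 genes were measured in this way, by 45 probe sets, among 11963 genes with such a probe set. NOP56, DKC1, BOP1 and DDX47 lay only on probe sets with several symbols, and NOP58, LYAR, NOB1, EBNA1BP2, GNL3 and DDX18 had no probe set under these symbols.

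MSTO-211H is an established line of human malignant mesothelioma. Cells received 760 µM piroxicam (a cyclooxygenase inhibitor), both drugs at these doses, 4.5 µg/mL cisplatin (a platinum compound that forms DNA adducts), or no drug. Total RNA was taken after 8 h or 24 h and hybridised to HGU133A arrays, 1 sample on each of 18 arrays. The 4 groups at 8 h had 2 arrays each, and at 24 h there were 3 arrays for P, 2 for P/C, 3 for C and 2 for untreated cells. All groups are cultures of 1 cell line, the study describes the replicates as biological, and P, P/C and C at 24 h share their 2 untreated arrays.

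Ribosomes are built in the nucleolus. RNA polymerase I makes a long precursor of rRNA, small nucleolar ribonucleoproteins guide its chemical modification (box C/D particles methylate ribose, H/ACA particles isomerise uridine), and large sets of assembly factors cut the precursor and fold it with ribosomal proteins into the 40S and 60S subunits. Growing and dividing cells spend much of their energy on this pathway, and its genes are known targets of the transcription factor MYC, which binds the sequence CACGTG, called an E-box.

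Deposited values are log2 signals, on which a step of 1 is a 2-fold change. On single arrays 14.95% to 16.79% of the 22283 probe sets reached a signal of 100 (log2 6.64). A probe set was tested when it reached this signal on at least 5 of the 18 arrays and had an interquartile range (IQR) of at least 0.25, which left 3057 probe sets. "Passed the test" below means an adjusted p of at most 0.05 in limma with Benjamini-Hochberg adjustment over these, "called" means that the log2 fold change was also at least 1 in size, and SE is the standard error of a log2 fold change. Each gene was represented by its probe set of highest mean. By this rule 16 members were tested: GAR1, NOLC1, DDX21, WDR43, UTP18, DDX10, PNO1, PES1, NOP2, NOP16, RRP1B, RRS1, NIP7, GNL2, FTSJ3 and MRTO4. The other 14 did not pass the filter, 6 by their IQR, 7 by their signal and 1 by both. Since the filter keeps genes that vary, counts of members that passed or were called describe the 16 tested genes unless said otherwise. Medians are given over the 30 measured genes. Counts of negative members and of members whose arrays did not overlap are over the 30 as well, where said. Shares of tested probe sets set beside them come from filtered probe sets only, so these sets are unlike.

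A pair of arrays stood apart from others of their label. A piroxicam score was taken as the median deviation from untreated cells over the 58 probe sets that were called in the 8 h main effect of piroxicam, counted as positive in the direction of that effect. It was 0.32 on the first P/C array at 24 h (replicate 1 in its label), against 1.31 on replicate 3. The score was 1.27 to 1.38 on the P arrays and 0.31 to 0.36 on the C arrays at 24 h. The array labelled C 24 h replicate 1 had 2.16% of the tested probe sets at least 1 away from the untreated mean, against 8.93% and 7.95% on the other C arrays. Its score was 0.36, against 0.13 and −0.13 on the untreated 24 h arrays. Over tested probe sets the first of these arrays correlated best with a C array at 24 h (replicate 3), and the second with an untreated array at 24 h (replicate 1). Best partners crossed labels elsewhere too, as untreated 24 h replicate 1 correlated best with P 8 h replicate 3, and untreated 24 h replicate 2 with C 8 h replicate 1. The labels of the arrays that stood apart may be wrong, which was not tested, and values for P/C at 24 h hold only as far as the label of replicate 1 does. For P/C and C at 24 h, the values that results turn on are also given without one or both of these arrays. Of the 13 measured mesothelial and mesothelioma markers, KRT8, KRT18 and VIM reached a signal of 100, while no other did, CALB2 and MSLN included, and none of the 8 leukocyte and erythroid or 6 endothelial markers did.

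Promoter sequences are shown because many members shared a sequence element that the choice of genes did not use. RefSeq windows of GRCh38.p14, from 250 bases before to 50 bases after the annotated start of a gene, were at hand for 33 of the 40 genes, and a match in any window of a gene was counted. CACGTG, which reads the same on both strands, was found in 18 of these (54.5%), against 8.77% of 27305 genes with a window. Of the 33 genes 8 had several windows, and the number of windows per gene was not compared with that of other genes. In GAR1, DDX21, LYAR and GNL3 the match lay only in the second window, so the GAR1 and DDX21 sites below belong to that window. Among genes with windows, 9 of 13 tested members (69.2%) and 278 of 1900 tested genes (14.6%) held it. In 15 members it lay within 50 bases after the start, and in 6 before it. The sites of 5 members that passed the test with P at 24 h or with piroxicam at 8 h, with 12 bases on each side and CACGTG in capitals, are:
GAR1, chr4:109815781-109815810, plus strand: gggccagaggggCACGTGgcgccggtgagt
WDR43, chr2:28894658-28894687, plus strand: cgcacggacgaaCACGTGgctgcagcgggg
UTP18, first site, chr17:51260445-51260474, plus strand: gggagtgctggtCACGTGgcaagaggctgc
UTP18, second site, chr17:51260538-51260567, plus strand: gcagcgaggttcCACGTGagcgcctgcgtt
PNO1, chr2:68157885-68157914, plus strand: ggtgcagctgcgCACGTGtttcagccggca
GNL2, chr1:37595917-37595946, minus strand: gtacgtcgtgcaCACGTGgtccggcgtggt
Sites of 3 tested members that did not pass the test with P at 24 h follow for comparison:
DDX21, chr10:68956604-68956633, plus strand: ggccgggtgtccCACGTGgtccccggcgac
PES1, chr22:30591880-30591909, minus strand: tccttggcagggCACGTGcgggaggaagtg
MRTO4, chr1:19251807-19251836, plus strand: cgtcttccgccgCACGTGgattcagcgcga
NOP16 and FTSJ3, the members with the largest falls, had no CACGTG in their windows, nor had NIP7 and DDX10. The 100 bases before their starts are shown with matches to CCGGAA, the core bound by ETS factors, or to its reverse complement TTCCGG in capitals:
NOP16, chr5:176388599-176388698, minus strand: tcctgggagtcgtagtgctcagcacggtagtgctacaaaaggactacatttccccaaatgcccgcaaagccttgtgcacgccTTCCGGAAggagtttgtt
FTSJ3, chr17:63827664-63827763, minus strand: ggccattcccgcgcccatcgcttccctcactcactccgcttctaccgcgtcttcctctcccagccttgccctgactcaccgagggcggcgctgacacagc
The ETS core stood in 18 of the 33 member genes with a window (54.5%), against 39.1% of tested genes and 20.1% of all genes with one, and in 0 members did a match overlap a CACGTG. A match describes the letters and not a bound site.

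**Figure D1:**
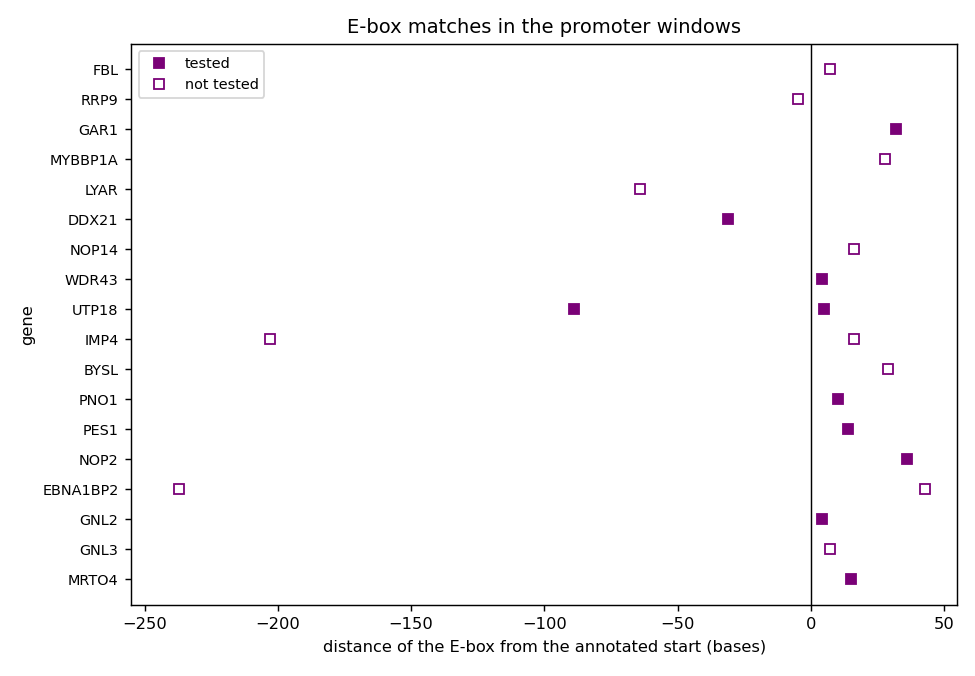
Position of each CACGTG match in the promoter windows, in bases from the annotated start of the gene (vertical line), with 1 row for each of the 18 genes that hold one. Filled squares are genes tested on the arrays and open squares are genes not tested or not measured, and 15 of the genes have a match within 50 bases after the start.

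With piroxicam alone at 24 h, members of both the H/ACA group and the subunit assembly groups were lower. Of the 16 tested members 8 were lower with P than in untreated cells at an adjusted p of at most 0.05, against 22.4% of all tested probe sets, and none was higher. Only 2 of them, NOP16 and FTSJ3, were also called, which is near the background of 11.4% called lower (14.6% in both directions). Over the 30 measured members the median log2 fold change was −0.22, with 22 negative, against 0.03 over all 22215 probe sets that are not controls. Tested probe sets also had a median of −0.22, and the 16 tested members −0.62. On 17 of the 30 every P array lay below both untreated arrays, which held for 42.8% of tested probe sets, a set without the members that did not pass the filter. RNA of whole cultures was measured, so fewer cells with a transcript and less of it per cell cannot be told apart.

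**Figure D2:**
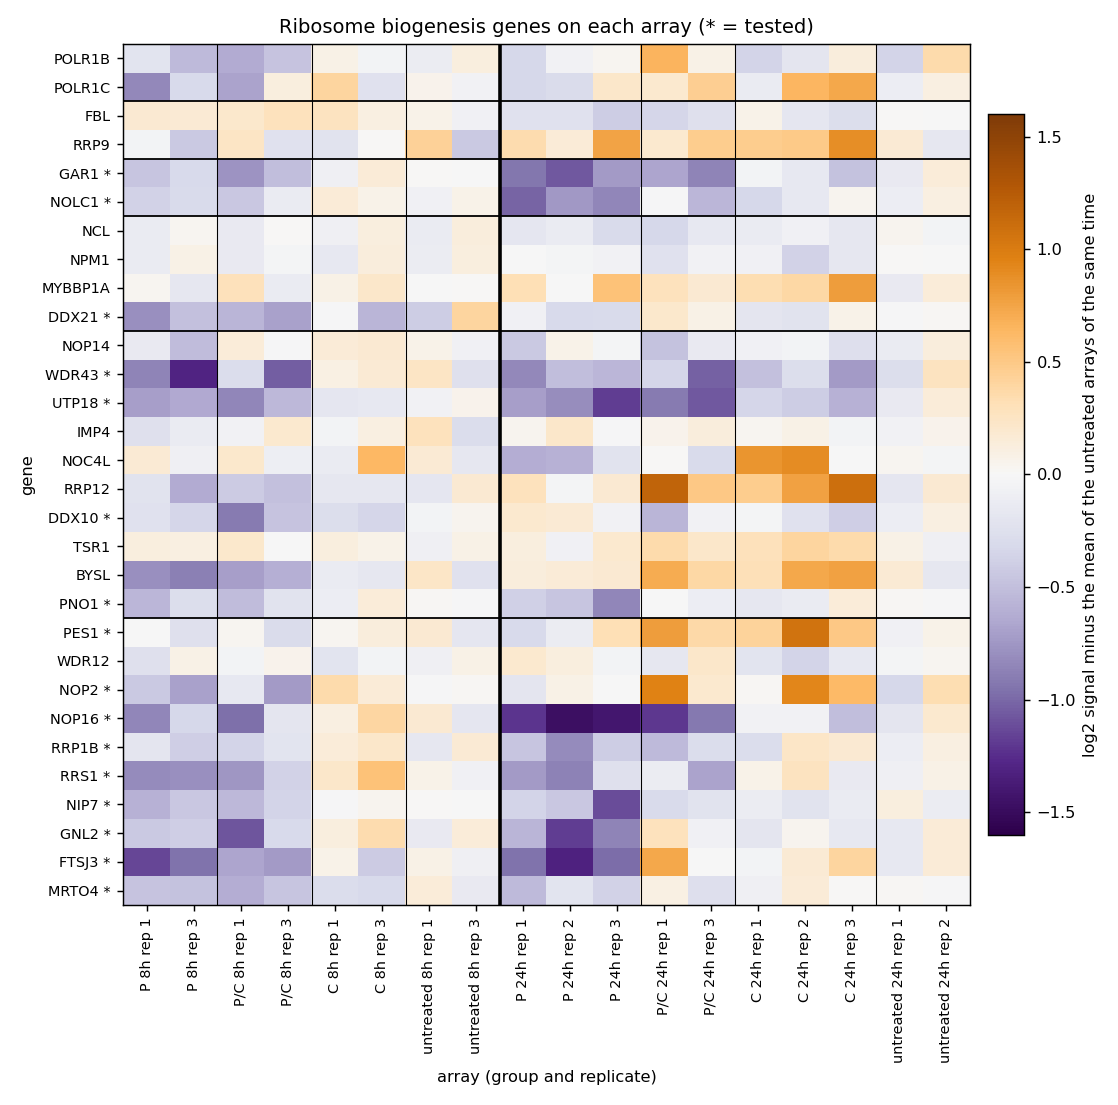
Log2 signal of the 30 measured genes on each of the 18 arrays minus the mean of the untreated arrays of the same time, with genes in the order of their roles (polymerase, box C/D, H/ACA, nucleolar proteins, 40S, 60S) and an asterisk for the 16 tested. Purple cells are lower and orange cells higher than untreated, and the purple block of the 3 P arrays at 24 h is deepest in NOP16, FTSJ3 and GAR1.

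Both measured members that were grouped here with H/ACA particles fell with P, and only GAR1 of them is a core protein of these particles. GAR1, a core protein of H/ACA particles, had log2 signals of 7.90, 7.78 and 8.10 on the P arrays, against 8.69 and 8.99 on the untreated arrays. The groups did not overlap, and the log2 fold change was −0.91 (SE 0.20, adjusted p = 0.00421). NOLC1, which chaperones small nucleolar particles, had 8.96, 9.24 and 9.13 with P, against 9.87 and 10.09 without drug. It fell by 0.87 (SE 0.21, adjusted p = 0.00654). Its second tested probe set fell in the same direction but did not pass (−0.61, adjusted p = 0.155).

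Among the assembly factors of the small subunit, UTP18, a component of the processome that handles the rRNA precursor, had 8.45, 8.36 and 7.98 with P, against 9.01 and 9.31 in untreated cells. Its log2 fold change was −0.90 (SE 0.20, adjusted p = 0.00433). PNO1, needed for the last cuts of 18S rRNA, had 8.33, 8.26 and 7.87 with P, against 8.73 and 8.70 without drug, and fell by 0.56 (SE 0.20, adjusted p = 0.047). Its second tested probe set had 7.11, 6.86 and 7.60 with P, against 7.18 and 7.77 without drug, and overlapped. WDR43, another processome component, was lower on all 3 P arrays but did not pass (−0.63, SE 0.28, adjusted p = 0.106). DDX10, an RNA helicase, had 0.10 (SE 0.21) and overlapped.

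The 60S assembly factors held both called genes. NOP16, a nucleolar protein of early 60S particles, had log2 signals of 7.12, 6.87 and 6.93 on the P arrays, against 8.14 and 8.54 on the untreated arrays. The groups were far apart, and the P level was 0.389 times the untreated one (log2 fold change −1.36, SE 0.26, adjusted p = 0.0019). A second NOP16 probe set fell by 0.78 (SE 0.24, adjusted p = 0.0253), the other 2 were dim on every array, and the mean of all 4 did not pass the filter. FTSJ3, a methyltransferase of the 60S pathway related to yeast Spb1, had 5.47, 5.11 and 5.45 with P, against 6.28 and 6.59 without drug. It fell by 1.09 (SE 0.24, adjusted p = 0.00467), to 0.470 times the untreated level, although all 5 arrays lay below a signal of 100, a level that FTSJ3 reached on 6 of the 18 arrays.

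GNL2, a nucleolar GTPase, had 7.66, 7.05 and 7.37 with P, against 8.08 and 8.38 in untreated cells, and fell by 0.87 (SE 0.25, adjusted p = 0.0168). NIP7, which binds pre-60S particles, had 8.48, 8.40 and 7.72 with P, against 8.96 and 8.72 without drug, and fell by 0.64 (SE 0.22, adjusted p = 0.0372). RRS1 (−0.62, adjusted p = 0.0616), RRP1B (−0.56, adjusted p = 0.0611) and MRTO4 (−0.37, adjusted p = 0.151) were lower on all 3 P arrays without passing. PES1 (−0.04) and NOP2 (−0.04), an rRNA methyltransferase, overlapped with the untreated arrays.

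DDX21, a helicase in rRNA transcription and processing, was the only tested member among the abundant nucleolar proteins, with −0.23 (SE 0.24, adjusted p = 0.492). NPM1, the histone and ribosome chaperone nucleophosmin, had 12.32, 12.30 and 12.27 with P, against 12.33 on both untreated arrays, and this probe set did not pass the filter. Its other probe sets did, with means of 11.90 and 10.37 with P, against 12.05 and 10.56 in untreated cells. FBL, the methyltransferase of box C/D particles, had 10.27, 10.27 and 10.11 with P, against 10.52 and 10.50 without drug, a difference of −0.29 (SE 0.12, adjusted p = 0.195) in the fit without the filter. POLR1C, a subunit of RNA polymerases I and III, had 5.84, 5.88 and 6.39 with P, against 6.07 and 6.29 in untreated cells, and overlapped.

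Untreated 24 h replicate 2 decided much of this count. Without it only NOP16 passed the test among the members, with an adjusted p of 0.0426, when 8.18% of all tested probe sets were called, and FTSJ3 had −0.93 (adjusted p = 0.0719). Without untreated 24 h replicate 1 there were 5 called members (15.3% of all tested called), and without P 24 h replicate 2 there was 1 (14.0%). Over all tested probe sets P was shifted down, with a median of −0.22 as deposited and −0.06 after quantile normalization, under which NOP16 had −1.17, FTSJ3 −0.94 and the 30 members a median of −0.13.

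**Figure D3:**
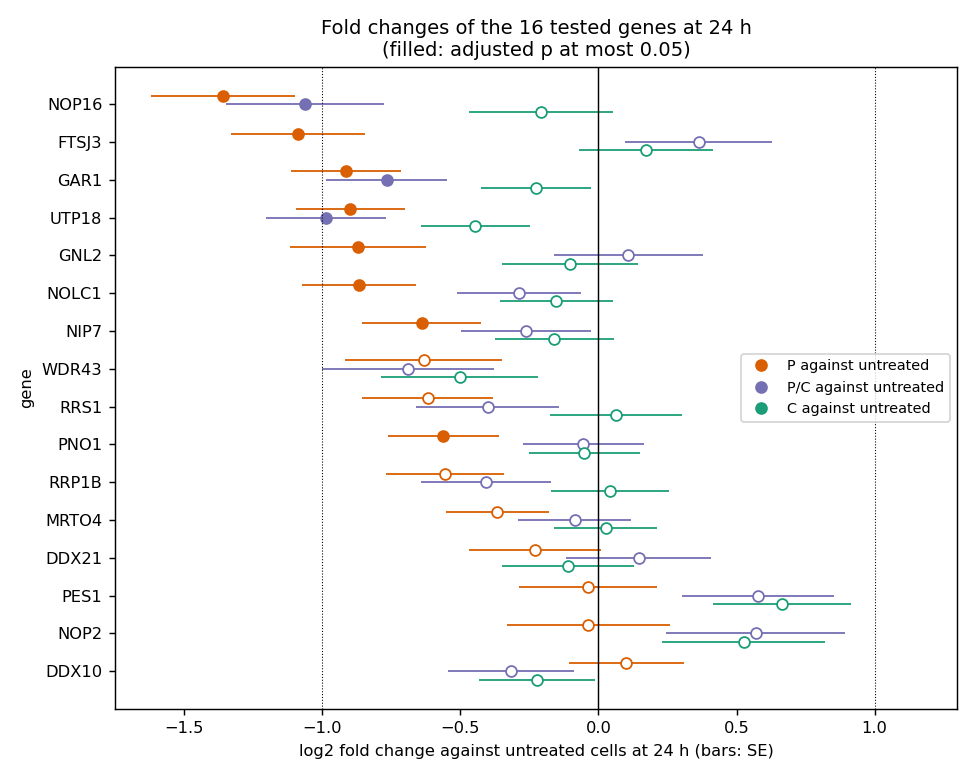
Log2 fold change of the 16 tested genes at 24 h for P, P/C and C against untreated cells, with bars of 1 SE and filled points for an adjusted p of at most 0.05. Dotted lines mark a change of 1 in either direction, and 8 genes have a filled point for P, 3 for P/C and none for C.

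At 8 h, most members were also lower on the arrays with piroxicam, but single contrasts did not pass the test. None of the 16 members was called with P against untreated cells (0.491% of all tested), although 7 had an unadjusted p under 0.05, all lower (5.72% of all tested), and 27 of the 30 measured members were negative with a median of −0.38. Likewise none was called with P/C (0.622% of all tested), where 9 had an unadjusted p under 0.05, all lower (7.56% of all tested), and the median was −0.41. With C none was called (0% of all tested) and none had an unadjusted p under 0.05, and the median over the 30 was 0.04. Every P array lay below both untreated arrays on 20 of the 30 members, against 24.4% of tested probe sets, which unlike the 30 had all passed the filter.

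Comparing the 4 arrays with piroxicam (P and P/C) with the 4 without it (C and untreated) at 8 h gave a main effect of the drug. The 30 measured members had a median of −0.37 in it, with 27 negative, against 0.01 over all probe sets. Of the 16 tested members 4 passed the test and were lower (3.70% of all tested), while none was called (1.90% of all tested). RRS1, needed to bring the 5S particle into the 60S subunit, had 6.59 and 6.61 with P and 6.65 and 7.04 with P/C, against 7.63 and 7.97 with C and 7.48 and 7.34 in untreated cells. All arrays with piroxicam lay below all arrays without it, and the effect was −0.88 (SE 0.18, adjusted p = 0.0119).

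WDR43 had 6.61 and 6.16 with P and 7.20 and 6.43 with P/C, against 7.57 and 7.65 with C and 7.72 and 7.22 in untreated cells. The highest P/C array lay just under the lowest untreated array, and the effect was −0.94 (SE 0.22, adjusted p = 0.0232). FTSJ3 had 5.99 and 6.18 with P and 6.47 and 6.41 with P/C, against 7.21 and 6.72 with C and 7.23 and 7.05 in untreated cells, an effect of −0.79 (SE 0.19, adjusted p = 0.0253). For this gene every 8 h array with piroxicam lay below a signal of 100 (log2 6.64), and every one without it lay above. The filter needed 5 arrays at this signal, and FTSJ3 had 6, which included all 8 h arrays without piroxicam. FTSJ3 was thus tested because of the side on which it was higher, and the size of its fall is uncertain. UTP18 had 8.82 and 8.89 with P and 8.69 and 8.99 with P/C, against 9.36 and 9.37 with C and 9.47 and 9.59 in untreated cells, and fell by 0.60 (SE 0.15, adjusted p = 0.034). NOP16 had an effect of −0.71 (adjusted p = 0.0528), while its second probe set passed (−0.83, adjusted p = 0.0185). BYSL, a 40S maturation factor that the filter had removed for its signal, had −0.67 (adjusted p = 0.0251) in the fit without the filter.

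At 8 h, arrays with the same replicate number deviated together. With the replicate number as a block, in a fit of the 8 h arrays alone, 9 members were lower in the main effect (9.68% of all tested), which were GAR1, WDR43, UTP18, NOP2, NOP16, RRS1, NIP7, GNL2 and FTSJ3, and WDR43 (−1.09, adjusted p = 0.0348) and FTSJ3 (−1.06, adjusted p = 0.03) were called with P alone, where 2.36% of all tested probe sets were called with the block. Without the block the count of 4 fell to 1 when untreated 8 h replicate 1, P 8 h replicate 3, either C 8 h array or P/C 8 h replicate 1 was left out, and to 2 without untreated 8 h replicate 3, or without replicate 1 of P at 8 h, when 1.18% to 2.19% of all tested were lower. It was 8 (6.22% of all tested) without both 24 h arrays that stood apart, which enter only through the shared estimate of the spread.

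The fall with P did not pass a test of a difference between the times. None of the 16 members was called for the effect of P at 24 h against its effect at 8 h (0.196% of all tested), and none had an unadjusted p under 0.05 (11.1% of all tested were lower and 1.6% higher at this level). NOP16 had the largest difference, −0.77 (95% interval −1.59 to 0.05, adjusted p = 0.415), and FTSJ3 had −0.03 (−0.79 to 0.73), with the other sign after quantile normalization. The second NOP16 probe set had −0.0006 (−0.75 to 0.75). These intervals leave room for sizeable differences between the times. The comparisons with P at the 2 times share no array, and 20 of the 30 members (66.7%) were negative in both. This held for 44.6% of tested probe sets, which unlike the 30 had all passed the filter. Across the 30 genes the fold changes at 8 h and 24 h correlated with r = 0.449, against 0.621 across tested probe sets, a description over genes that share arrays.

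**Figure D4:**
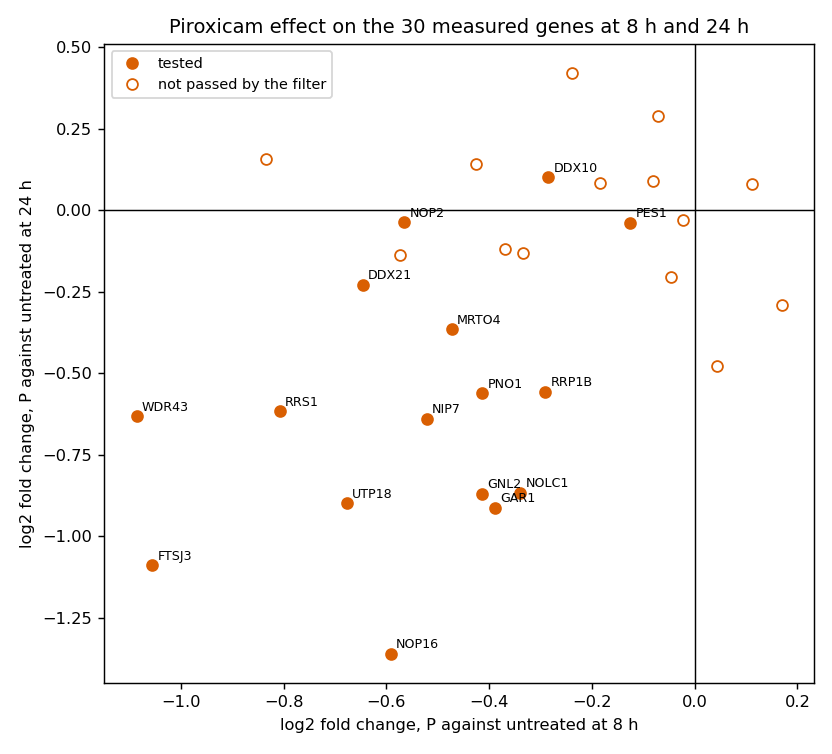
Log2 fold change of P against untreated cells at 8 h (horizontal) and 24 h (vertical) for the 30 measured genes, with filled and named points for the 16 tested ones. Points to the lower left were negative at both times, which holds for 20 genes, with FTSJ3 near −1 on both axes and NOP16 lowest at 24 h.

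With both drugs at 24 h, NOP16, UTP18 and GAR1 were lower. Of the 16 tested members 3 were lower with P/C than in untreated cells (6.18% of all tested), none was higher, and NOP16 was called (6.87% of all tested in both directions). NOP16 had 7.13 and 7.42 with P/C, against 8.14 and 8.54 in untreated cells (−1.06, SE 0.29, adjusted p = 0.0326). Its second tested probe set, with means of 7.39 with P/C and 8.13 in untreated cells, was not called. UTP18 had 8.26 and 8.09 with P/C, against 9.01 and 9.31 without drug, and fell by 0.99 (SE 0.22, adjusted p = 0.0154). GAR1 had 8.17 and 7.98 with P/C, against 8.69 and 8.99 without drug, and fell by 0.77 (SE 0.22, adjusted p = 0.0379). In all 3 genes both P/C arrays lay below both untreated arrays, as they did in 34% of all tested probe sets.

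Over the 30 measured members the median with P/C was −0.07, with 16 negative, against 0.00 over all probe sets. Tested probe sets had a median of −0.12, and the tested members −0.27. PES1, which forms a complex with BOP1 and WDR12 in 60S assembly, had 8.08 and 7.65 with P/C, against 7.21 and 7.36 in untreated cells (0.58, adjusted p = 0.17), and 0.36 (adjusted p = 0.45) without both arrays that stood apart. The median deviation of the tested members from the untreated mean was −0.07 on the array labelled P/C 24 h replicate 1 and −0.24 on replicate 3. Without replicate 1, GAR1 had −0.86 (adjusted p = 0.0438) and UTP18 −1.07 (adjusted p = 0.0162), while NOP16 had −0.92 (adjusted p = 0.0938), so that 2 members were lower (9.32% of all tested). Without P/C 24 h replicate 3, or without untreated 24 h replicate 2, no member passed the test as lower (1.11% and 0.131% of all tested did).

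P/C and P differed in 1 member at 24 h. FTSJ3 had 7.16 and 6.43 with P/C, against 5.47, 5.11 and 5.45 with P, a difference of 1.45 (SE 0.24, adjusted p = 0.0453), while 0.164% of all tested probe sets were called. The difference was 1.09 (adjusted p = 0.39) once P/C 24 h replicate 1 was left out, whose own value of 7.16 lay above every other array at 24 h, and its part in the result beyond this was not tested. The adjusted p was over 0.05 in 9 of 13 alternatives, and 0.158 without both arrays that stood apart. GNL2 had 8.52 and 8.16 with P/C, against 7.66, 7.05 and 7.37 with P (0.98, SE 0.25, adjusted p = 0.0538), and 0.80 (adjusted p = 0.41) without both. For NOP16 the difference was 0.30 (95% interval −0.26 to 0.85), for GAR1 0.15 (−0.28 to 0.57) and for UTP18 −0.09 (−0.51 to 0.33). For the difference between the P/C effect and the P and C effects added together, no member was called (0% of all tested), and 3 had an unadjusted p under 0.05, all positive (FTSJ3 1.28, GNL2 1.08 and NOLC1 0.73, or 0.80, 0.86 and 0.37 without both arrays that stood apart). Over all tested probe sets 12.1% were positive at this level and 1.86% negative, with a median of 0.21. Against C, no member was called with P/C (0.0981% of all tested), and 3 had an unadjusted p under 0.05, all lower (NOP16 −0.85, GAR1 −0.54 and UTP18 −0.54, or −0.63, −0.55 and −0.57 without both), as had 8.41% of all tested.

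**Figure D5:**
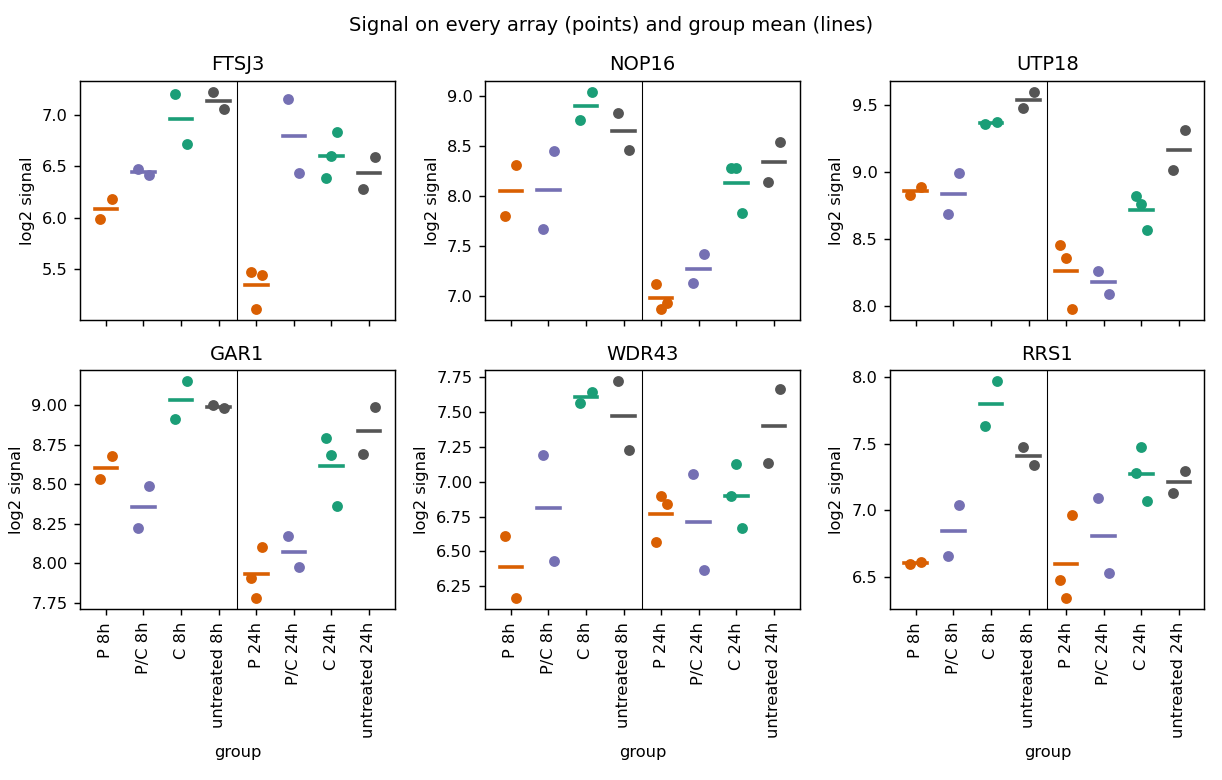
Log2 signal of FTSJ3, NOP16, UTP18, GAR1, WDR43 and RRS1 on every array (points), with the group mean as a line, at 8 h (left of the vertical line in each panel) and 24 h (right). FTSJ3 has its 3 lowest arrays with P at 24 h, while NOP16, UTP18 and GAR1 are low with both P and P/C there.

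Cisplatin alone moved none of the 16 tested members past the test at 24 h, and none was called (0% of all tested). At an unadjusted p under 0.05, PES1 was higher (0.66, SE 0.25, adjusted p = 0.296) and UTP18 lower (−0.45, SE 0.20, adjusted p = 0.333), while 4.74% of all tested were higher and 9.03% lower at this level. PES1 had 7.70, 8.35 and 7.79 with C, against 7.21 and 7.36 in untreated cells, so that all C arrays lay above, and 0.79 (adjusted p = 0.0774) was its difference without both arrays that stood apart. The median over the 30 members was −0.08 with C, and −0.01 without the array labelled C 24 h replicate 1, when again none was called.

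P and C were also compared directly. Of the 16 tested members 9 were lower with P than with C at 24 h (17.9% of all tested) and none was higher, and NOP16 and FTSJ3 were called (10.9% of all tested in both directions). FTSJ3 had 5.47, 5.11 and 5.45 with P, against 6.38, 6.60 and 6.83 with C, or 0.417 times the C level (−1.26, SE 0.22, adjusted p = 0.00143). NOP16 had 7.12, 6.87 and 6.93 with P, against 8.28, 8.28 and 7.83 with C (−1.15, SE 0.23, adjusted p = 0.00351). Neither gene overlapped between the drugs, and both kept their call under each of the 14 alternatives in which they were tested. For FTSJ3 all P arrays and the C arrays at 6.38 and 6.60 lay below a signal of 100. It reached this signal on no array with P alone, so it was tested because of other groups. The size of its fall is thus uncertain. FTSJ3 kept its call in the fit without the filter (adjusted p = 0.00496), while alternatives such as quantile normalization used the filtered probe sets. FTSJ3 is not tested at a signal of at least 200, nor NOP16 with the mean of its probe sets. The second tested NOP16 probe set differed less, with means of 7.35 with P and 7.88 with C, and was not called. The other members that passed were GAR1, NOLC1, PNO1, PES1, RRP1B, RRS1 and GNL2, with −0.51 (PNO1) to −0.77 (GNL2).

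RRP1B, a nucleolar protein of the 60S pathway, had 8.58, 8.21 and 8.63 with P, against 8.75, 9.26 and 9.21 with C, and fell by 0.60 (adjusted p = 0.0333). A second probe set of NOLC1 was called here (−1.11, SE 0.28, adjusted p = 0.0112). NOC4L, a 40S assembly factor removed by the filter for its signal, had 4.22, 4.24 and 4.63 with P, against 5.68, 5.74 and 4.84 with C (−1.06, adjusted p = 0.0246 in the fit without the filter), and −0.92 (adjusted p = 0.0593) without both arrays that stood apart. Over the 30 members the median was −0.45, with 25 negative. Leaving out 1 array brought the 9 members to between 3 (without P 24 h replicate 2) and 8, with 4 without P 24 h replicate 1 or C 24 h replicate 2, when 10.7% to 16.0% of all tested were lower. Without the array labelled C 24 h replicate 1 there were 8.

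Untreated cells at 24 h were set against untreated cells at 8 h. None of the 16 members was called between untreated cells at 24 h and at 8 h (0.0981% of all tested), and only FTSJ3 had an unadjusted p under 0.05 (2.19% of all tested were lower at this level). It had 6.28 and 6.59 at 24 h, against 7.23 and 7.05 at 8 h (−0.71, SE 0.26, adjusted p = 0.76). The 30 members had a median of −0.26, with 27 negative, and on 16 of them both 24 h arrays lay below both 8 h arrays. This held for 18.5% of tested probe sets, which unlike the 30 had all passed the filter.

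Members that did not pass the filter included the most abundant nucleolar proteins. NCL (nucleolin) and NPM1 had differences of −0.21 and −0.03 with P at 24 h, WDR12 had 0.09 and IMP4, a protein of the U3 particle, had 0.08. POLR1B, a large subunit of RNA polymerase I, had −0.12, and RRP9, a protein of the U3 particle, had 0.42. RRP12, which acts in export of pre-ribosomes, was dim on all arrays (at most 4.67) and had 0.84 with P/C at 24 h (adjusted p = 0.108) and 0.78 with C (adjusted p = 0.425). Without both arrays that stood apart, RRP12 had 0.50 (adjusted p = 0.349) with P/C and 0.93 (adjusted p = 0.0283) with C. With all arrays, none of the 14, each by its probe set of highest mean, passed the test against untreated cells at 24 h in the fit without the filter. Other probe sets of NPM1 and TSR1 passed the filter. Those of TSR1 had means of 7.62 and 6.31 with P at 24 h and 7.81 and 6.95 with P/C, against 7.63 and 6.75 in untreated cells. Those of NPM1 had 11.87 and 10.04 with P/C, against 12.05 and 10.56.

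A further list of 102 ribosome biogenesis factors held 84 measured and 34 tested genes. With P at 24 h 3 of the 34 passed the test and were lower, all of them called, and 2 were higher. These shares lay below the background (22.4% lower, 11.4% called lower) or near it (5.95% higher), and the median over the 34 was −0.17, against −0.22 over all tested probe sets. UTP11, a processome component, had 6.79, 6.39 and 6.52 with P, against 7.75 and 8.09 in untreated cells (−1.35, adjusted p = 0.00119). UTP3 (−1.29, adjusted p = 0.00591) and PAK1IP1 (−1.12, adjusted p = 0.00302) were also called. PAK1IP1 had 5.91, 5.93 and 5.69 with P, against 7.03 and 6.91 in untreated cells. It reached a signal of 100 on no array with P alone at either time, so the size of its fall is uncertain. POLR1D, a small subunit shared by RNA polymerases I and III, was higher (0.88, adjusted p = 0.00562), as was the rRNA methyltransferase NSUN5 (0.98, adjusted p = 0.00826). With P/C none of the 34 was lower and NSUN5 alone was higher (0.99, adjusted p = 0.0326, and 0.94, adjusted p = 0.0118, without both arrays that stood apart), while 3.70% of all tested were higher.

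The nuclear exosome trims rRNA precursors, and 5 of its 11 measured genes were tested. EXOSC9, a core subunit, was called lower with P at 24 h (−1.13, adjusted p = 0.00366), and EXOSC8, another core subunit, was lower (adjusted p = 0.0296). With P/C, EXOSC8 (−1.54, adjusted p = 0.018) and the cofactor C1D (−1.06, adjusted p = 0.041) were called lower (4.22% of all tested). Without both arrays that stood apart, EXOSC8 had −1.37 (adjusted p = 0.0186), C1D −0.64 (adjusted p = 0.211) and EXOSC9 −1.14 (adjusted p = 0.0118). Of the list of MYC and its partners 3 of 9 measured genes were tested. MYC itself had 11.98, 11.65 and 11.93 with P at 24 h, against 11.40 and 11.16 in untreated cells, and rose by 0.57 (SE 0.20, adjusted p = 0.039). At 8 h its main effect of piroxicam was 0.66 (SE 0.15, adjusted p = 0.0214). MXI1, a partner of MAX that opposes MYC, had 7.55, 7.46 and 7.24 with P, against 6.67 and 5.95 without drug, and was called higher (1.11, SE 0.31, adjusted p = 0.0158). For MXI1 every 8 h array lay below a signal of 100 (5.12 to 6.18). Besides the P arrays, only untreated replicate 1 (6.67), C replicate 3 (6.78) and P/C replicate 3 (7.97) at 24 h reached it. The filter needed 5 arrays at this signal. MXI1 was thus tested because of the P arrays, on which it was higher, and the size of its rise is uncertain. Whether these levels bear on the E-box genes was not tested.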

How the data were processed

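The 18 HGU133A arrays of MSTO-211H cells fell into 8 groups, taken with their replicate numbers from the labels. The authors removed outlying arrays and made the deposited log2 signals with GCRMA, which corrects background and normalizes between arrays, of a version not given in the sources used here. Normalization between arrays assumes like distributions of signal, so changes are relative to the bulk of probe sets. No counts or raw intensities were used, and the number of arrays limits the precision.

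The limits of the filter were taken from the study's methods: the IQR had to reach 0.25, and 25% of the arrays had to reach a signal of 100. They left another number of probe sets here than in the study, and the cause is not known. Affymetrix controls (68 probe sets) were not used. limma 3.58.1 in R 4.3.3 was fitted to 3057 probe sets with 1 mean per group (10 residual and 5.76 prior degrees of freedom), p values were two-sided and adjusted by Benjamini-Hochberg within each of 13 comparisons, and the fit was tested on simulated data. Members that did not pass the filter come from a second fit, made without the filter on 22215 probe sets. The annotation gives 19071 probe sets 1 symbol, 1043 several and 2169 none, and a gene was named only from the first kind. Replicates are biological in the study's words, and no source says what a number shares. Arrays of the same number deviated together at 8 h (6 distinct correlations, since 2 arrays of a group mirror each other, of 0.203 to 0.66, all over 0.1). At 24 h only some pairs did (−0.223 to 0.393, 5 of 12 over 0.1). Untreated cells with P were among them, at 0.393 for replicate 1 and 0.285 for replicate 2. The main fit did not use this pairing, and the replicate block was an alternative only.

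The members, lists, tests and naming rule were chosen with earlier results of these data known. By the rule, values per array are given for called members (up to 3 per role and comparison) and, in roles without one, for the member of highest signal, and up to 4 called genes per direction of the other lists are named. Values per array for further members were added after they were seen. Alternatives were no filter, a signal of 200, quantile normalization, median centring, array weights, fitting only a comparison's arrays, a replicate block, the mean of a gene's probe sets, and leaving out arrays.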

Additional observations from a re-analysis of the deposited data

How the results depend on the processing

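For the 25 results of single members that passed the test, 358 values under alternatives were computed, of which 0 reversed, 249 kept their side of the threshold and 109 lost it, and the cause was not tested in any case. Members that did not pass could change sign after quantile normalization, as PES1 (0.165) and NOP2 (0.127) did with P at 24 h and PNO1 (0.0096) with P/C. The share of all tested probe sets moved with the setting as well. Counts below thus show how a count depends on the processing and not how members stand against the background. As reported, 14.6% of all tested were called and 22.4% lower with P at 24 h, and 6.87% and 6.18% with P/C. For P against C these shares were 10.9% and 17.9%, and for the 8 h main effect 1.90% and 3.70%. With P against untreated cells at 24 h, called members numbered 1 at a signal of at least 200, after quantile normalization and with the mean of a gene's probe sets, and 1 to 5 when 1 array was left out, and members lower numbered 4 with the mean of probe sets, 10 without both arrays that stood apart and 1 to 8 when 1 array was left out. The median was −0.56 over the 13 members left at a signal of 200, and over the 30 members −0.13 after quantile normalization, −0.62 over only the 16 that passed the filter (chosen after seeing the data), −0.218 without both arrays that stood apart and −0.31 to −0.23 when 1 array was left out.

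With P/C at 24 h no member was called without the filter, with array weights, with only the arrays of the comparison, with the replicate block and with the mean of probe sets, and 0 to 2 were when 1 array was left out. Members lower numbered 0 with array weights and with only the arrays of the comparison, 1 with the replicate block and with the mean of probe sets, and 0 to 2 when 1 array was left out. The median was −0.26 over the 13 members left at a signal of 200, −0.0167 after quantile normalization, −0.0198 with the replicate block, 0.0507 with the mean of probe sets, −0.27 over only the 16 members that passed the filter and −0.0887 to −0.000139 when 1 array was left out. With C at 24 h the median was −0.0119 after quantile normalization, −0.0126 with array weights, 0.0235 with the mean of probe sets, −0.01 without both arrays that stood apart and −0.0551 to 0.0279 when 1 array was left out.

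For P against C, 1 member was called at a signal of 200 and with the mean of probe sets, and 5 were lower after quantile normalization, 10 without both arrays that stood apart and 3 to 8 when 1 array was left out. For P/C against P none was called without the filter, at a signal of 200, after quantile normalization, with array weights, with only the arrays of the comparison or without both arrays that stood apart, and 0 to 2 when 1 array was left out. For the departure from the sum 0 to 1 were called when 1 array was left out. At 8 h, called members with P numbered 1 with array weights, 2 with the replicate block in the 8 h arrays alone and 1 without both arrays that stood apart. In the main effect of piroxicam 0 to 1 were called when 1 array was left out, and members lower numbered 2 after quantile normalization, 9 with that block, 8 without both arrays and 1 to 4 when 1 array was left out. The block moved no other count of called members by over 1.5 times, but over all tested probe sets it gave 72 calls for P at 8 h and 92 for P/C, against 15 and 19 without it. Several members lie below or near a signal of 100, where the arrays resolve little.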
